A study of Rattus norvegicus with 6 samples.

Results

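The genes followed here are 10 genes of IL-6 family signaling: the ligand Il6, the receptor chains Il6r, Il6st, Osmr and Lifr, the kinases Jak1 and Jak2, the transcription factor Stat3, its feedback inhibitor Socs3, and Cebpd. They were chosen by name, out of 14506 genes with a probe set of their own on the array, and each has 1 probe set. The values come from the left atria of 6 adult male Sprague-Dawley rats of 250 to 320 g, 1 array per rat. 3 rats underwent rapid atrial pacing (RAP) at a cycle length of 70 ms for 48 hours, and 3 were paced at 140 ms for the same time (control pacing, Con). All 6 carried an electrode on the right atrium and drank the beta blocker atenolol, and the ventricular rate was alike in both groups, and the design varied the atrial pacing rate. A RAP rat and its control were operated on and paced side by side as pairs 1 to 3. There was no unpaced group.

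IL-6 binds its receptor chain Il6r, and the complex recruits gp130 (Il6st), the signal-transducing chain that the whole cytokine family shares. Oncostatin M and LIF signal through gp130 with a partner chain, Osmr or Lifr. The bound Janus kinases phosphorylate STAT3, which enters the nucleus and induces, among others, Socs3, a protein that blocks gp130 and its kinases, and Cebpd, a transcription factor of the acute-phase response. In the heart the pathway is known from cardiomyocyte survival and hypertrophy, from fibroblasts and from inflammatory cells.

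The arrays fitted their tissue label, with some differences between rats. The atrial granule peptide Nppa lay between 13.40 and 13.59 and the atrial light chain Myl7 between 13.61 and 13.76 on the log2 scale. Of 11 atrial markers measured, only Bmp10 stayed under 5 on every array. A log2 signal above 5 on at least 1 array was the study's condition for testing a probe set. Control 3 stood apart in ventricular and red cell RNA: the ventricular light chain Myl2 was at 8.60 there and between 4.28 and 4.89 elsewhere, and 6 erythroid markers averaged 10.40 against 7.37 to 8.15. Control 2 stood apart in inflammatory cells: 15 macrophage markers averaged 9.89 there and 8.13 to 9.01 elsewhere, and 11 neutrophil markers 6.74 against 5.22 to 6.09. In tissue RNA, fewer cells of a type and less RNA per cell cannot be told apart.

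With RAP, the mRNAs of the feedback inhibitor Socs3 and of Cebpd fell, and no member rose. Socs3 was 2.06-fold and Cebpd 1.43-fold lower than with control pacing. The other 8 members, Stat3 among them, did not pass. The words rose and fell are kept for genes past both thresholds of the study (fold change over 1.3, p below 0.05 before adjustment) in a limma fit that takes the pair as a block. By this rule 6.39% of the 11237 genes tested were called, 2.94% higher and 3.45% lower, and 2 of the 10 members (20%) were called, both lower. After Benjamini-Hochberg adjustment over all probe sets tested, limma called 0 genes (0%), while 774 had an unadjusted p under 0.05. The adjusted p of the members lay between 0.756 and 0.893. All changes below are differences in log2 signal of RAP from control, and SE is limma's standard error of that difference.

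Both calls rest on few arrays. Without replicate 1 or without replicate 2, 0 members were called, and without replicate 3 there were 7. Of all 11237 genes tested, 164, 378 and 2488 were called in these settings, against 718 in the reported fit. Without the block, 1 member was called, Socs3. It was also the single call with control 2 left out, and 6 members were called with control 3 left out. Over all genes, 870 were called without the block, 513 with control 2 left out and 1731 with control 3 left out.

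Il6, the ligand, was at the edge of detection. Its log2 signals were 3.92, 5.24 and 3.86 in controls 1, 2 and 3, and 3.75, 3.53 and 3.95 in RAP rats 1, 2 and 3. Only control 2 exceeded 5, and it alone carried the gene through the signal filter. The lower mean with RAP rests mostly on that array, so it cannot count as support for a fall. The change was -0.59 (SE 0.38, limma adjusted p = 0.783), made up of -0.16, -1.70 and 0.09 in pairs 1, 2 and 3, and without replicate 2 it was -0.04.

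The promoters of 8 members are in the RefSeq table for the rat build GRCr8 (Jak1 and Cebpd are not). The 250 bases upstream of the start are shown for Il6, the ligand, and for Socs3, the member with the largest change. Both strands were searched for a STAT motif (TTCNNNGAA), a C/EBP motif (TTGCNNAA), which proteins of the Cebpd family bind, and an NF-κB motif (GGANTTTCC). Matches are in capitals. None of these motifs shares bases with another in either sequence. Il6 lies at chr4:5894576-5894825 and Socs3 at chr10:103694769-103695018, both on the minus strand and written 5′ to 3′ along the gene.
Il6: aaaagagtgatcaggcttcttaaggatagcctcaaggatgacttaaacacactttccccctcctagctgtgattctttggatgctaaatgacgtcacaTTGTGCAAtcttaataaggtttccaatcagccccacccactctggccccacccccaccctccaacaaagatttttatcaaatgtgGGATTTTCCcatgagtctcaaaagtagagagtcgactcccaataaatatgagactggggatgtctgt
Socs3: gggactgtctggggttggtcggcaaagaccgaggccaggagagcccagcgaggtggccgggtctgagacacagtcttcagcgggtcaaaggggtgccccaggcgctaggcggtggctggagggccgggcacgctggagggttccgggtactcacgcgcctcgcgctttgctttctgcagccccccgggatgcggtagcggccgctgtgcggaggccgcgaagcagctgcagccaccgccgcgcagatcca

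In the Il6 window the C/EBP letters TTGTGCAA, on the opposite strand, run from base -152 to -145 and the NF-κB letters GGATTTTCC from -67 to -59 relative to the start. Of 33469 rat promoters of this length, 9.22% hold the C/EBP motif, 1.08% the NF-κB motif and 7.67% the STAT motif. The STAT motif was in 0 of the 8 members' windows, and the Socs3 window, with 70.4% G and C against a median of 51.2%, held none of the 3 motifs. A match is a description of letters and not a bound site, and these windows leave out more distant elements. Each window also rests on the annotated start taken for the gene. That start was not checked, and another would give other letters, so a window without a motif does not show a promoter without it.

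Among the receptor chains, Osmr, the oncostatin M receptor, differed most between groups and was also the most uneven. Its log2 signals were 7.93, 8.39 and 7.42 in controls 1 to 3, and 7.11, 6.53 and 7.81 in RAP rats 1 to 3. The RAP rats of pairs 1 and 2 were below every control, and RAP 3 lay above its own control, so the groups overlapped. The change of -0.76 (SE 0.44, 95% interval -1.91 to 0.38) did not pass. Within pairs it was -0.82, -1.86 and 0.38.

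Il6r, the ligand-binding chain, showed the same split between pairs on a smaller scale. Signals of 8.02, 8.05 and 7.26 in the controls stood against 7.37, 7.42 and 7.74 with RAP. The mean difference was -0.27 (SE 0.27). Control 3 was the lowest of all 6 arrays, below each RAP rat.

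Il6st, which encodes gp130, was nearly level. It read 10.43, 10.23 and 10.43 with control pacing and 10.40, 10.44 and 10.62 with RAP, a difference of 0.12 (SE 0.14, 95% interval -0.23 to 0.48). That interval still contains a 1.3-fold rise, which is 0.379 on the log2 scale.

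Lifr, the LIF receptor chain, ran opposite to Osmr in each pair. Its signals were 8.18, 8.07 and 8.58 in the controls and 8.51, 8.77 and 8.39 with RAP. The difference was 0.28 (SE 0.21) on average, with 0.34, 0.70 and -0.19 in pairs 1, 2 and 3, and it did not pass. Whether Lifr and Osmr differed in their response was not tested.

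Of the kinases, Jak2 varied widely and Jak1 hardly at all. Jak2, the kinase that many cytokine and growth hormone receptors use, read 9.19, 9.45 and 8.33 in the controls and 8.15, 8.05 and 9.08 with RAP. Pairs 1 and 2 differed by -1.05 and -1.40 and pair 3 by 0.75, so that the mean of -0.57 (SE 0.45, 95% interval -1.74 to 0.61) says little about the group as a whole. Osmr, Il6r, Lifr and Jak2 depended on single rats in both directions, in fits without the block. With control 3 left out, Jak2 passed at -0.90, Osmr at -1.01, Il6r at -0.52 and Lifr, in the other direction, at 0.44. In that setting 1731 of the 11237 genes tested were called, against 718 in the reported fit and 513 with control 2 left out. With control 2 left out, none of these 4 passed, and Jak2 was at -0.34, Osmr at -0.53, Il6r at -0.13 and Lifr at 0.18.

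Jak1, the main kinase bound to gp130, varied least of the kinases, with an SD of 0.04 in the controls and 0.15 with RAP. Its signals were 9.73, 9.65 and 9.70 with control pacing and 9.59, 9.46 and 9.77 with RAP. The difference was -0.09 (SE 0.14, 95% interval -0.44 to 0.27), and the lower end of that interval lies beyond a 1.3-fold fall.

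Stat3 itself did not pass. Signals of 9.59, 9.30 and 9.22 in controls 1 to 3 stood against 9.08, 8.99 and 9.57 in RAP rats 1 to 3. In pairs 1 and 2 the RAP rat was lower, by differences of -0.51 and -0.31, and in pair 3 it was higher by 0.36. The mean was -0.16 (SE 0.21, 95% interval -0.71 to 0.40), and without replicate 1 it turned to 0.02. The arrays measure mRNA, so they give no reading of STAT3 phosphorylation.

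**Figure D1:**
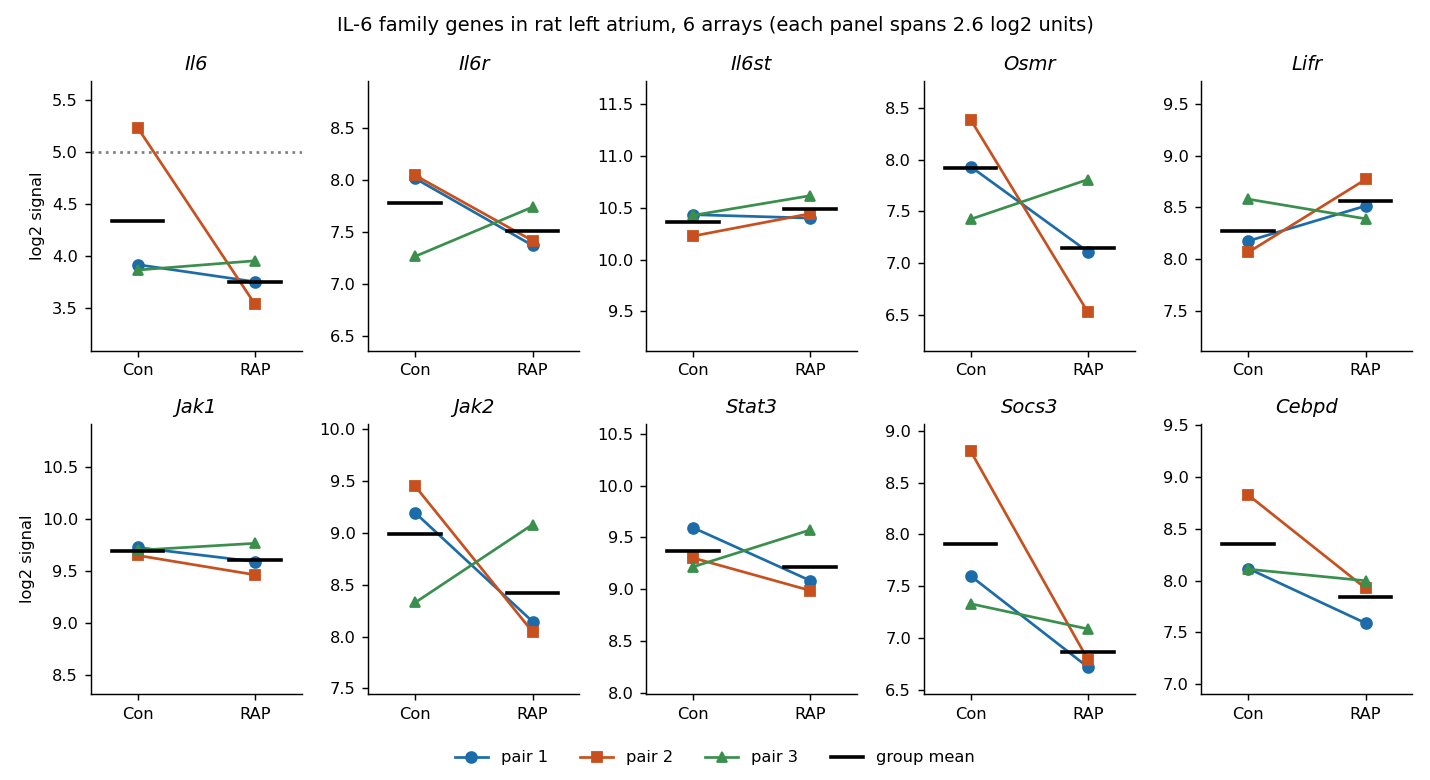
Log2 signal of the 10 genes with control pacing (Con) and RAP. Each line joins the 2 rats of a pair, black bars are group means (n = 3), every panel spans the same range, and the dotted line in the Il6 panel is the signal level of 5. The groups are apart in Socs3 and Cebpd. Pair 3 slopes the other way from pairs 1 and 2 in Il6, Il6r, Osmr, Lifr, Jak1, Jak2 and Stat3.

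Socs3 had the largest change of the 10. Its log2 signals were 7.60, 8.80 and 7.33 in controls 1, 2 and 3, and 6.72, 6.79 and 7.09 in RAP rats 1, 2 and 3. Every RAP rat was below every control, with a gap of 0.24 between RAP 3 and control 3. The controls were spread over an SD of 0.78, led by control 2, and the RAP rats over 0.19. Socs3 fell by 1.04 (SE 0.36, 95% interval -1.98 to -0.11, limma adjusted p = 0.756), with -0.88, -2.01 and -0.24 in pairs 1, 2 and 3. With control 2 left out and no block, Socs3 still passed, with a smaller change of -0.60. The call was lost without replicate 1 (-1.13), without replicate 2 (-0.56), with RAP 1 (-0.97) or RAP 2 (-1.01) left out, and by the methods' paired t-test.

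Cebpd, the gene of C/EBPδ, followed the same order of the 6 arrays. It read 8.12, 8.82 and 8.11 in the controls and 7.59, 7.93 and 8.0 with RAP. The highest RAP rat lay 0.11 below the lowest control. The gene fell by 0.51 (SE 0.19, 95% interval -1.02 to -0.01, limma adjusted p = 0.756), with -0.53, -0.90 and -0.11 in the pairs. This call is marginal: it was lost in 11 of 18 other settings, among them the fit without the pair as a block (-0.51) and control 2 left out (-0.28). Beside limma's unadjusted p of 0.035 for Socs3 and 0.0479 for Cebpd, an exact permutation test over the 6 arrays gave p = 0.1 for each, the smallest two-sided value that 3 against 3 allows, and an exact sign-flip test over 3 pairs cannot go below 0.25.

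Groups of arrays that do not overlap, with RAP lower, were found for 2 of 10 members (20%) and for 7.84% of all genes tested. Lower in all 3 pairs were the same 2 members, Socs3 and Cebpd, and 14.1% of all genes. The most common pattern among the members was another one: 6 of 10 (Il6, Il6r, Osmr, Jak1, Jak2 and Stat3) were lower with RAP in pairs 1 and 2 and higher in pair 3, a pattern that 21.7% of all genes had. Of these Il6 passed the signal filter through control 2 alone, so its lower value in pair 2 rests on that array and cannot count as support. The median change of the 10 genes was -0.39 (-0.27 without Il6), against -0.01 for all genes. By pair it was -0.52, -0.76 and 0.14. Since the members were chosen with earlier results of these arrays known, these shares describe them and were not tested.

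**Figure D2:**
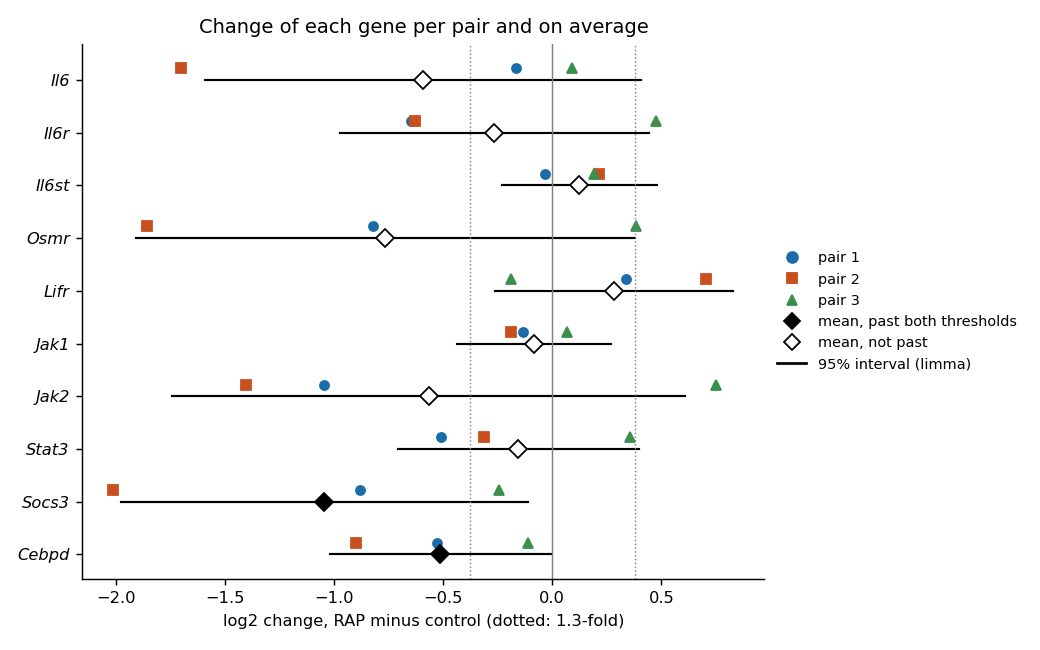
Log2 change, RAP minus control, of the 10 genes. Coloured symbols are the 3 pairs, diamonds the means (filled where both thresholds were passed), black lines the 95% intervals of limma, and dotted lines a 1.3-fold change. The Socs3 and Cebpd means are filled, at -1.04 and -0.51, and 8 intervals include 0.

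The split between pairs also ran through markers of other cells. The mean macrophage marker level (15 of 16 listed genes measured, none under 5 on all arrays) was 8.97, 9.89 and 8.35 in controls 1 to 3 and 8.42, 8.13 and 9.01 in RAP rats 1 to 3. Within pairs this is -0.56, -1.76 and 0.65, beside -0.82, -1.86 and 0.38 for Osmr and -1.05, -1.40 and 0.75 for Jak2. All 15 markers had a mean change below 0, and 1 of them, Vsig4, a complement receptor of tissue macrophages, fell (-1.50, SE 0.49). Vsig4 read 5.86, 7.93 and 5.53 in the controls, with control 2 far above the others. With RAP it read 4.60, 5.04 and 5.16, near the signal level of 5.

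Other lists moved too. Mast cell markers (8 of 9 listed, none under 5 on all arrays; 5.52 to 7.21 in controls and 5.11 to 6.81 with RAP) differed by -0.86, -1.65 and 1.29 in the pairs, and fibroblast markers (12 of 12; 10.04 to 10.79 and 9.83 to 10.59) by -0.35, -0.96 and 0.54. Neutrophil markers (11 of 11, with Camp under 5 throughout; 5.43 to 6.74 and 5.22 to 6.09) differed by -0.21, -1.41 and 0.31. Mesothelial markers (10 of 12; 8.86 to 9.97 and 8.73 to 8.99) differed by -1.10, -0.13 and -0.54, so their mean was lower in all 3 pairs. The genes of this list were split. In pair 2 Gpm6a (2.45), Bnc1 (1.32), Krt19 (1.24) and Upk1b (0.14) were higher with RAP, while Prg4 was at -2.16. In pair 3 Krt8 (0.57) and Krt18 (0.91) were higher. Over the 3 pairs 8 of the 10 had a mean change below 0, and Gpm6a (0.61) and Krt19 (0.06) did not. The mesothelial genes Prg4 (-2.20, SE 0.26), Msln (-0.71, SE 0.14) and Wt1 (-0.85, SE 0.19) fell, 3 of 10. So did the matrix gene Fbln1 (-0.88, SE 0.32), the only call of the fibroblast list. In that list 8 of 12 genes had a mean change below 0, and the others, Pi16 (0.28) among them, were above. Adipocyte markers (8 of 8) averaged 5.97 to 7.28 in controls and 6.38 to 8.01 with RAP. Their mean was higher with RAP in all 3 pairs, by 0.41, 0.17 and 0.72. Of these 8, 4 rose: Adipoq (1.09, SE 0.21), Pck1 (0.95, SE 0.28), Cidec (0.58, SE 0.15) and Retn (0.46, SE 0.14). Cfd had a mean change below 0 (-0.26), with -1.58 in pair 2, and Lep was lower in pair 1 (-0.25). In the remaining lists Pam, an enzyme of atrial granules (0.43, SE 0.15), Gzmb, a protease of cytotoxic lymphocytes (0.42, SE 0.15), and Cspg4, a pericyte gene (0.45, SE 0.14), rose. Each was the only call of its list. Below 0 were 5 of 8 genes tested in the T, B and NK cell list. In the smooth muscle and pericyte list they were 3 of 9, and in the atrial list 0 of 10. In pair 3, Socs3 and Cebpd were lower with RAP while macrophage, mast cell, neutrophil and fibroblast markers were higher. The mesothelial mean was lower in pair 3 too (-0.54), and like Socs3 and Cebpd it was lower in all 3 pairs. The part of these cells in the members' values was not tested.

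**Figure D3:**
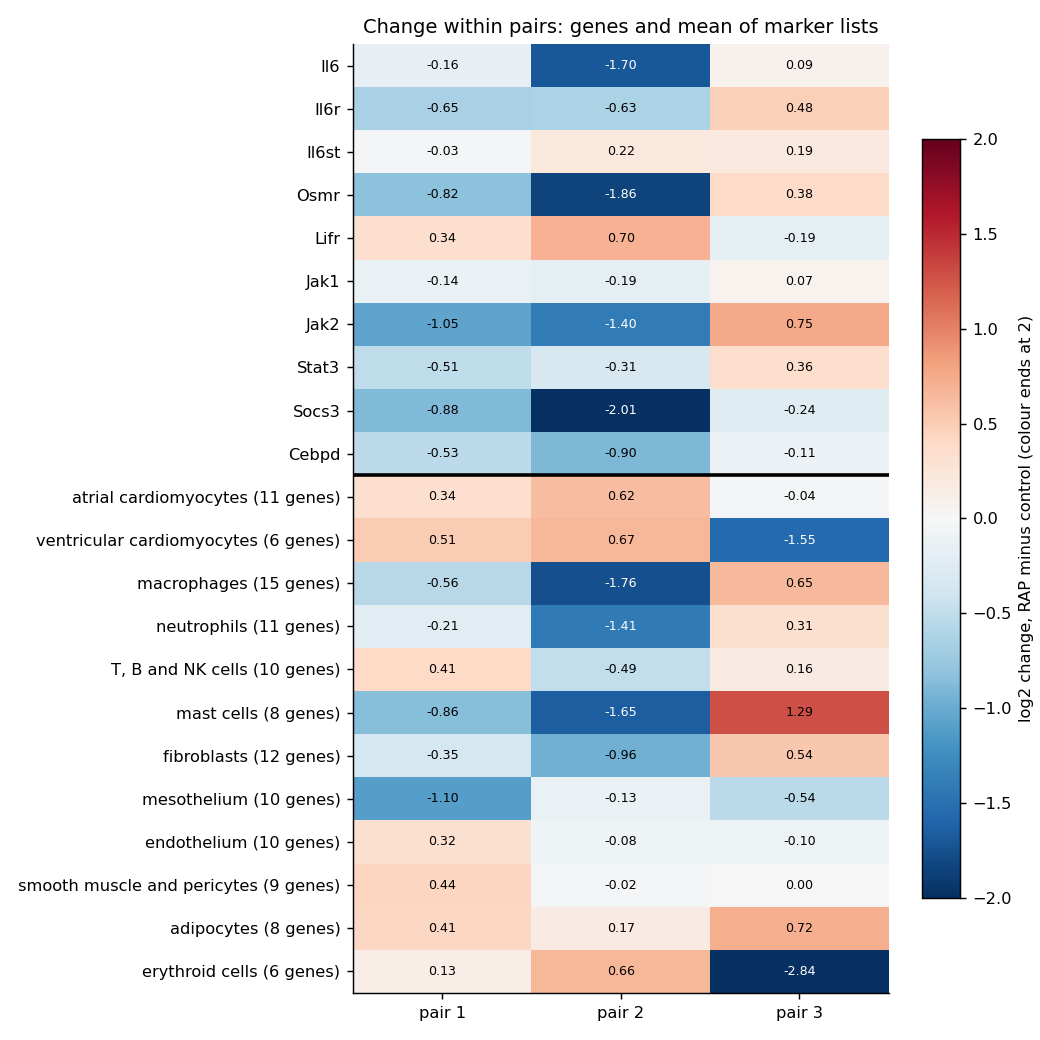
Log2 change, RAP minus control, within each pair (columns) of the 10 genes (upper rows) and of the mean level of 12 marker lists (lower rows). Red is higher and blue lower with RAP, and the colour ends at 2 either way. Osmr, Jak2 and the macrophage, mast cell and fibroblast lists are blue in pairs 1 and 2 and red in pair 3. Socs3, Cebpd and the mesothelium list are blue in all 3 pairs, the list only faintly in pair 2 (-0.13).

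By likeness of profile, the 6 arrays placed Socs3 nearest to Aif1, a gene of macrophages (root-mean-square difference of the mean-centred log2 signals 0.17, where Socs3 itself varied by 0.70), then to C1qtnf7 (0.17) and Gpr160 (0.19). In each of these pair 3 ran the other way from Socs3, with Aif1 at 0.15. Cebpd was nearest to the kinase gene Map3k8 (0.09), to Nmi (0.09), whose protein binds STATs, and to Cd302 (0.10). For Stat3 the nearest were Casp2 (0.02), Gabpb2 (0.04) and Rac1 (0.04). These are the closest of 11237 genes over 6 arrays, and the likeness was not tested.

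Around the 10 members, a list of 86 further genes of the pathway held 75 with a probe set and 72 that could be tested. Of these 1 rose and 10 fell (13.9% lower, against 3.45% of all genes). The falls were mostly in target genes: 5 of 12 acute-phase genes and 3 of 21 other STAT3 targets. Leaving the acute-phase genes out, 1 of 60 rose and 5 fell (8.33% lower), with a median change of -0.09. By the methods' paired t-test 2 of the 11 calls were kept, Lbp and Cebpb.

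The other ligands gave no call in 6 genes tested. Changes ran from -0.35 for Clcf1, the cardiotrophin-like cytokine, to 0.19 for Cntf. Lif and Osm, whose receptor chains are described above, were at 0.08 (SE 0.13) and 0.17 (SE 0.13). Neither did the other 3 receptor chains pass, Il11ra1, Cntfr and Il27ra, with changes of 0.07 to 0.23.

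Jak3, the kinase of lymphoid cytokine receptors, fell by 0.44 (SE 0.16), from 7.30, 7.22 and 6.77 to 6.64, 6.70 and 6.63, without overlap of the groups. It was lost in 9 of the 18 other settings, centring the arrays on their medians among them. Stat5a (-0.23, SE 0.13) and Stat5b (0.06, SE 0.16) did not pass. In the MAP kinase branch 0 of 7 genes passed, with the adaptor Shc1 lowest (-0.42, SE 0.27) and Hras highest (0.27, SE 0.13).

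The SOCS family did not move as one. Socs2, an inhibitor of growth hormone signaling, rose by 0.66 (SE 0.23): it read 9.34, 9.26 and 9.62 in the controls and 10.08, 10.40 and 9.72 with RAP. All RAP rats were above all controls, as in 7.57% of all genes. The call was lost by the methods' paired t-test and on leaving out pair 1 or pair 2. Cish, another family member, was at 0.38 (SE 0.15) without passing, and Socs1, Socs5 and Socs6 were at -0.05, -0.07 and 0.07. No test compared Socs2 with Socs3.

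Other negative regulators gave no call. Pias3, which binds STAT3 and blocks its DNA binding, was lower in each pair (-0.33, -0.44 and -0.31) and missed the fold threshold at -0.36 (SE 0.13). The phosphatase genes Ptpn1, Ptpn2 and Ptpn6 were at -0.38, -0.15 and -0.29. Ptpn11, the SHP2 phosphatase that docks on gp130, stood higher with RAP in each pair and did not pass (0.35, SE 0.15).

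In the C/EBP family Cebpb, the partner of Cebpd in acute-phase transcription, fell by 0.46 (SE 0.14). Its signals were 8.17, 8.41 and 7.88 with control pacing and 7.71, 7.77 and 7.60 with RAP, with no overlap. The call was lost in 6 of the 18 other settings, leaving out pair 1 or pair 2 among them, and Cebpa and Cebpg did not pass (-0.09 and 0.07).

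Among 21 STAT3 target genes outside the acute phase, 17 had a change below 0, beside 51.2% of all genes tested, and the median was -0.47. Ier3, an immediate-early survival gene, fell by 1.06 (SE 0.32), Tnfrsf1a, the TNF receptor, by 0.73 (SE 0.26), and the kinase gene Pim1 by 0.49 (SE 0.18). Ier3 and Tnfrsf1a had no overlap between the groups, and RAP 3 was the RAP rat nearest to its control in both (-0.15 and -0.04). Leaving out pair 1 or pair 2 ended both calls, and Pim1 was lost in 12 of the 18 other settings. Junb (-0.65, SE 0.25), Myc (-0.85, SE 0.35), Bcl3 (-0.14), Mcl1 (0.05) and Bcl2l1 (0.00) did not pass.

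Of the 12 acute-phase genes tested, Lbp, Hpx, Lcn2, C3 and Timp1 fell. A2m and Orm1 passed the signal filter through control 2 alone. Their lower means with RAP rest on that array and cannot count as support for a fall. Lbp, the lipopolysaccharide-binding protein, read 12.02, 12.64 and 11.48 in the controls and 10.80, 10.76 and 10.56 with RAP. It fell by 1.34 (SE 0.22), the only one of the 11 pathway calls kept in all 18 other settings. Lcn2, which is also on the neutrophil list, differed by -1.36, -5.02 and -1.42 in the pairs and was kept in 17. Timp1, an inhibitor of metalloproteinases, fell by 1.62 (SE 0.51), a call that the methods' paired t-test and the omission of pair 1 ended. The complement gene C3 (-1.99, SE 0.54) was lost in 6 of the 18 other settings, array weights and 4 omissions of a single array among them. Hpx, the heme carrier hemopexin (-1.87, SE 0.58), was lost in 4, and control 2 read 8.55 where the other controls read 6.15 and 6.08. The RAP rats read 5.03, 4.94 and 5.19 for Hpx, near the signal level of 5. Fga, Fgb and Crp, which the liver makes, stayed under a signal of 5 on every array and were not tested. Fgg, another fibrinogen chain, lay between 5.75 and 9.24. It differed by 0.29, 2.57 and -3.49 in pairs 1, 2 and 3 and did not pass (-0.21, SE 1.15).

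**Figure D4:**
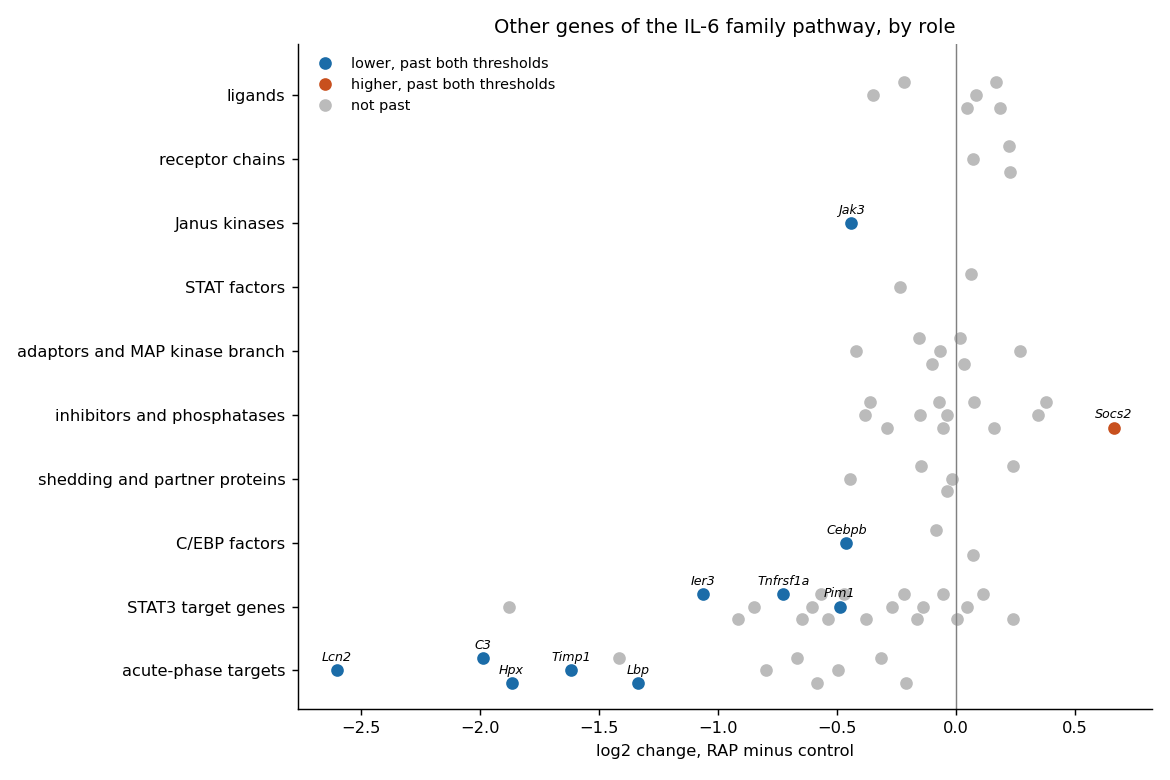
Log2 change, RAP minus control, of 72 further genes of the pathway, 1 point per gene, in rows by role (vertical offsets within a row only separate points). Blue genes fell and orange genes rose past both thresholds. Of the 10 blue points, 8 lie in the STAT3 target and acute-phase rows, and Socs2 is the single orange point.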

How the data were processed

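Left atrial RNA of 6 rats was hybridized to GeneChip Rat Gene 1.0 ST arrays, 1 per rat. The authors made the deposited log2 values in Partek Genomics Suite by RMA with default parameters (background correction, quantile normalization, summary per probe set), and the version is not given in the sources used here. RMA pulls the arrays to one distribution, so a shift shared by most genes would not be seen. The values were used as deposited. Scan dates and other batches are not given in the sources used here. The number of arrays limits the precision.

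Genes were named by the array annotation (15310 probe sets with 1 symbol, 323 with several, 13581 with none). Of the first, 15279 have an identifier in the current RefSeq list. Where a gene has several probe sets, the brightest on average over the 6 arrays stands for it, and 19907 of 29214 probe sets with a log2 signal above 5 on at least 1 array were tested. All 10 members have 1 probe set and were tested, Il6 with 5 arrays under that level.

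The comparison of RAP with control was a fit in limma (3.58.1, under R 4.3.3) with the pair as a block (2 residual and 2.76 prior degrees of freedom). Sequence and marker summaries were made with Python 3.11.15. The fit was tested on simulated data first. Samples were grouped by their titles. The number of a sample marks its pair, per the labels and the study's methods. As a check, the deviations of paired arrays from their group means correlated across probe sets at 0.223, -0.24 and -0.32 in pairs 1, 2 and 3.

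The members, pathway and marker lists and the alternatives were chosen with earlier results of these data known. Named are the 10 members, pathway and marker genes past the thresholds, and the 3 genes most like each called member and Stat3, and other pathway genes were named after their values were seen. The alternatives were the methods' paired t-test, no replicate block, a variance trend with robust moderation, array weights, median centring, further quantile normalization, no filter or a stricter one, the mean of a gene's probe sets, and leaving out each pair. Leaving out single arrays, without the block, was added after seeing the data. Lists not given in the report had these median changes: atrial cardiomyocytes 0.43 (11 of 13 genes measured), ventricular 0.01 (6 of 6), T, B and NK cells -0.04 (10 of 12), endothelium 0.08 (10 of 11), smooth muscle and pericytes 0.15 (9 of 9) and erythroid cells -0.71 (6 of 8).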

Additional observations from a re-analysis of the deposited data

How the results depend on the processing

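The 2 member calls were kept with median centring, no filter, a stricter filter and the mean of a gene's probe sets. 1 member was called with no replicate block, with a variance trend and robust moderation, and after further quantile normalization, 0 by the methods' paired t-test and 6 with array weights. Leaving out 1 pair gave 0 to 7 members. Leaving out 1 array without the block gave 1 member without control 1 or control 2, 6 without control 3, 0 without RAP 1 or RAP 2 and 3 without RAP 3. For all genes, 718 in the reported fit, the counts were 234 by the methods' paired t-test, 2650 with array weights, 164 to 2488 with a pair left out, and 408, 1731 and 1144 without control 1, control 3 and RAP 3. For the other pathway genes, 11 in the reported fit, they were 2 by the methods' paired t-test, 25 with array weights, 5 to 24 with a pair left out, 7 without control 1 or control 2, 18 without control 3 and 6 without RAP 2. Dropping the pair as a block ended the call of Cebpd and of no other member, and left the members' median change at -0.39. Stat3 passed in 2 settings, array weights (-0.441) and without replicate 3 (-0.413), and changed sign without replicate 1, to 0.021. The median change of the members stayed below 0 in all 18 settings, from -0.68 without replicate 3 to -0.08 without replicate 2. The stricter filter left Il6 without a value, since 5 of its 6 arrays lie under a signal of 5. The cause of these differences was not tested.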

Other observations

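Several acute-phase genes were high in a single rat, control 2, the array that also led in Il6, Socs3 and Cebpd. Serpina3n, a serine protease inhibitor, was at 9.40 there and between 5.18 and 6.39 on the other 5 arrays. A2m, alpha-2-macroglobulin, was at 7.35 against 4.37 to 4.74, and haptoglobin (Hp) at 7.18 against 4.86 to 5.26. Orm1, an acid glycoprotein, read 5.37 against 3.85 to 4.49, and the neutrophil gene S100a8 7.90 against 3.96 to 6.03. Of these genes, Serpina3n, A2m, Hp and Orm1 differed within pair 1 by -0.05, -0.02, 0.05 and 0.24 and did not pass between groups.

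Reg3b and Hif1a were low in control 3. Reg3b, a secreted lectin, read 10.44 and 10.93 in controls 1 and 2 and 7.92 in control 3, beside 8.28, 6.22 and 9.15 with RAP, the widest range of the STAT3 targets. Hif1a, the oxygen-regulated transcription factor, read 10.81 and 10.63 in controls 1 and 2, and on the other 4 arrays it lay between 9.10 and 9.40. Neither passed the thresholds.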
